A study of Mus musculus with 27 samples.

Results

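The genes described here are listed as those that build and stock the peroxisome, a small organelle bounded by a single membrane. They were chosen by name, as 13 peroxins and 27 enzymes, transporters and membrane proteins listed with the peroxisome outside the core beta-oxidation cycle. Where each protein lies in these livers was not measured. All 40 were found among the 23191 gene symbols of the liver RNA-Seq table, each on 1 row. The livers came from 27 male C57BL/6J mice. Chow was fed to 7 littermate controls and 6 HGFAC-KO mice, and a diet rich in fat and sucrose (HF/HS) to 7 mice of each genotype. All mice were 8 weeks old at the start and were sampled after 4 weeks. HGFAC-KO mice carry a germline deletion at the start of *Hgfac* in every tissue, so an effect seen in the liver need not arise there. HGFAC is a protease that hepatocytes secrete and that activates hepatocyte growth factor. The comparisons ask whether its loss, and the HF/HS diet, changed the transcripts of this organelle.

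Peroxisomes shorten and modify fatty acids that mitochondria handle poorly, begin the synthesis of ether lipids, shorten the side chain of bile acid precursors, and detoxify glyoxylate and hydrogen peroxide. They hold no DNA, so every protein is made in the cytosol and imported. Peroxins are the import, membrane assembly and division machinery, and the other members are listed as its cargo and the proteins of its membrane. In rodent liver many of these genes answer to PPARα, a nuclear receptor for fatty acids, and hepatocytes are rich in peroxisomes.

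Libraries held 36056177 to 57298657 counts, and levels are given as CPM, counts scaled to library size with TMM factors. *Hgfac* itself checked the labels. On chow it averaged 201 ± 13.1 CPM (SD, n = 7) in controls and 75.5 ± 8.13 CPM (n = 6) in HGFAC-KO mice. On HF/HS diet it averaged 270.4 ± 14.6 and 91.7 ± 8.04 CPM (n = 7 each). Every HGFAC-KO mouse was below every control on either diet. Hepatocyte markers far exceeded those of other cells in each library: the 6 markers measured of 7 summed to at least 72683 CPM, while the 6 Kupffer cell markers summed to at most 265 CPM and the 6 leukocyte markers to at most 19.3 CPM. Control replicate 7 on HF/HS diet and HGFAC-KO replicate 1 on chow were least like the rest of their groups (median Spearman correlation across genes 0.983 and 0.985). Some of the results that rest on them are given without them too. Tissue RNA cannot tell fewer cells of a type from less RNA per cell.

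The most abundant members per length were cargo enzymes. Per kilobase of exon, over all 27 mice, catalase (*Cat*), which breaks down hydrogen peroxide, had the highest median at 1159 CPM per kb. Next came *Scp2*, a thiolase and sterol carrier for branched chains, at 984, and *Phyh*, which starts the alpha-oxidation of phytanic acid, at 957. *Ephx2*, the soluble epoxide hydrolase, stood at 547 CPM per kb. The next 5 ran from 165 down to 78.9 CPM per kb. In order they were *Agxt*, which turns glyoxylate into glycine, *Hao1*, which makes glyoxylate from glycolate, the ATP-driven fatty acid transporter *Abcd3*, the enoyl-CoA reductase *Pecr* and the peroxiredoxin *Prdx5*.

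**Figure D1:**
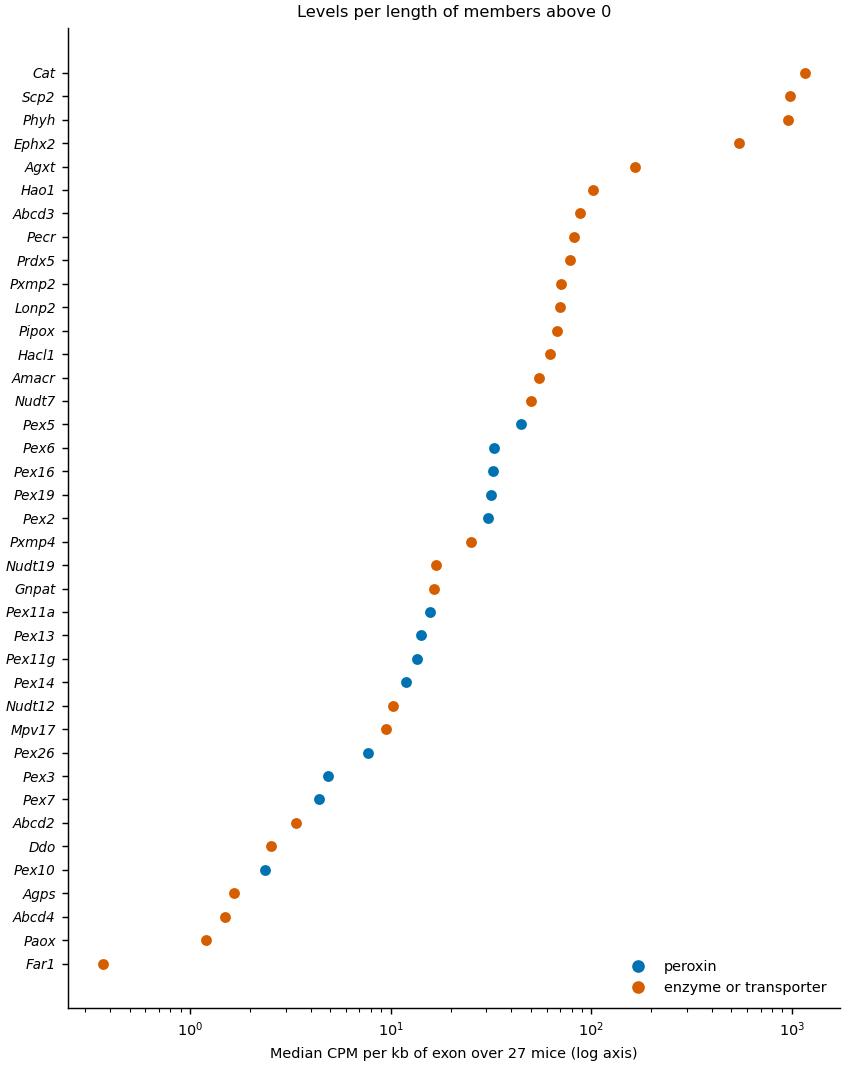
Median level per kilobase of exon over 27 mice for the 39 members above 0, on a log axis, with peroxins in blue and enzymes and transporters in orange. The 15 highest points are all enzymes, transporters or membrane proteins, and the highest peroxin, *Pex5*, stands at 44.7 CPM per kb.

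Among peroxins the order followed no single role. The matrix import receptor *Pex5* led at 44.7 CPM per kb, and the other receptor, *Pex7*, which brings in a smaller set of enzymes, was near the bottom at 4.38. The docking proteins *Pex13* and *Pex14* lay at 14.2 and 11.9 CPM per kb. Of the RING ubiquitin ligases that recycle the receptor, *Pex2* stood at 30.6 and *Pex10* at 2.37. The ATPase *Pex6*, which pulls the receptor out, stood at 32.7 CPM per kb, above its membrane anchor *Pex26* at 7.68. Of the membrane protein assembly factors, *Pex16* and *Pex19* were close together at 32.4 and 31.8 CPM per kb, and *Pex3* was at 4.86. The division factors *Pex11a* and *Pex11g* were at 15.7 and 13.5 CPM per kb.

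The other enzymes and membrane proteins spread widely. The channel protein *Pxmp2* (70.8 CPM per kb), the matrix protease *Lonp2* (70.3), the sarcosine oxidase *Pipox* (67.2), the alpha-oxidation lyase *Hacl1* (62.1), the racemase *Amacr* (55.2) and the coenzyme A hydrolase *Nudt7* (50.1) exceeded every peroxin. *Pxmp4* (25.3 CPM per kb), a second coenzyme A hydrolase *Nudt19* (16.8), the NAD-capped RNA and NADH hydrolase *Nudt12* (10.3) and *Mpv17* (9.54) fell within the peroxin range. The ether lipid enzymes *Gnpat*, *Agps* and *Far1* were at 16.4, 1.66 and 0.371 CPM per kb. Low levels were also seen for the transporters *Abcd2* (3.38) and *Abcd4* (1.49), the aspartate oxidase *Ddo* (2.54) and the polyamine oxidase *Paox* (1.20). *Dao*, the D-amino acid oxidase known from kidney, had at most 1 count in a mouse and none in 22 of 27 mice. It alone did not pass the filter on low counts, so 39 members were tested. Some counts are uncertain because exons overlap another gene: on the opposite strand over 35.0% of the *Nudt19* exons and 28.3% of the *Pex14* exons, and on the same strand over 31.1% of the *Hacl1* exons.

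Most members were steady from mouse to mouse. The standard deviation within groups, on the log2 scale, was lowest for *Pex13* (0.0611) and *Gnpat* (0.0684). It was highest for *Abcd2* (0.635), a transporter of very long-chain fatty acids, and for *Far1* (0.408), followed by *Agxt* (0.283), *Nudt7* (0.265), *Paox* (0.243) and *Pex11a* (0.238). *Far1* was measured on only 58 to 190 counts per mouse, *Abcd2* on 281 to 1970.

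**Figure D2:**
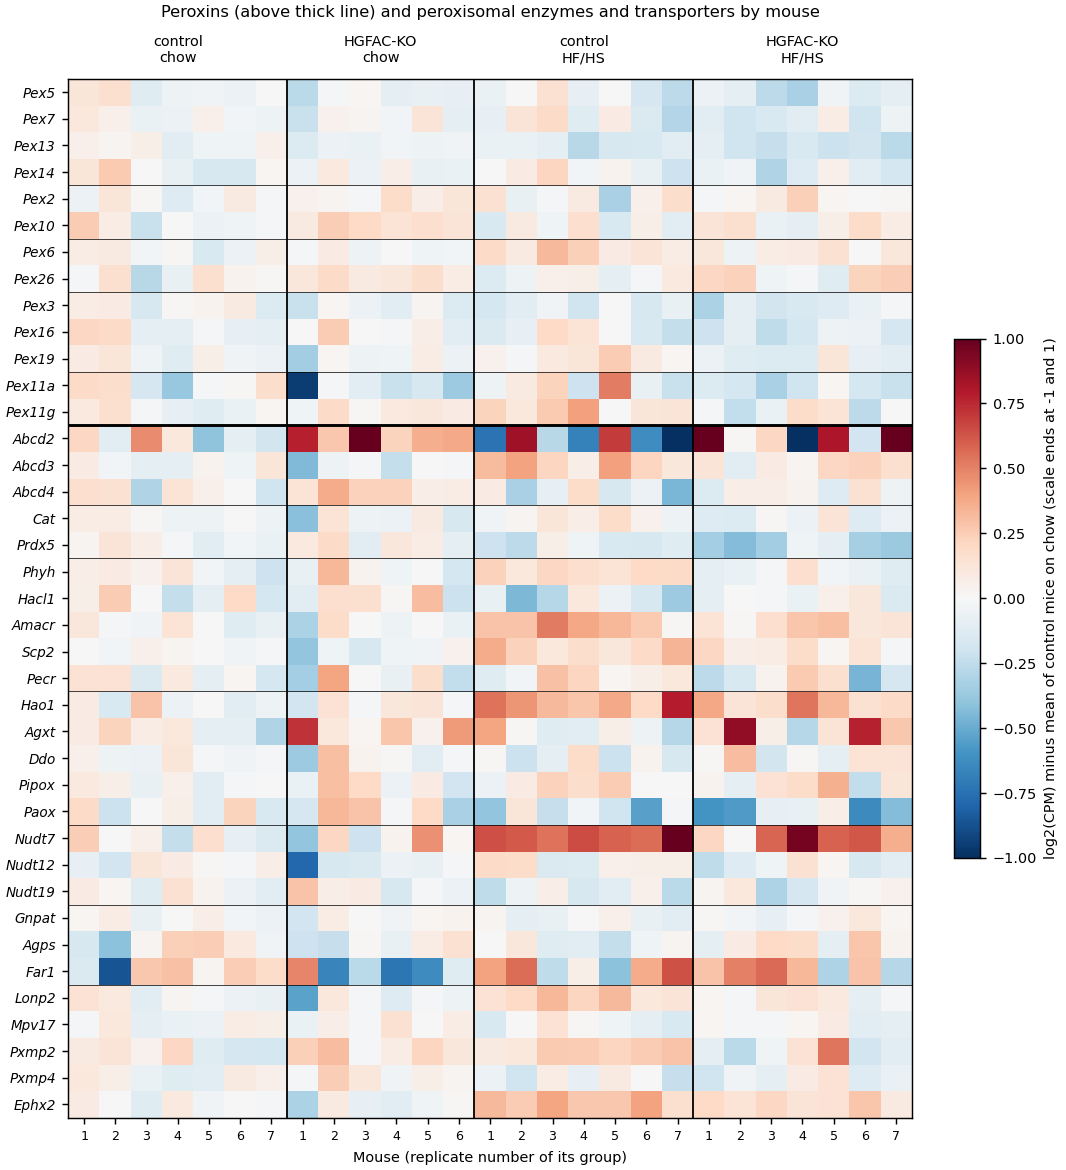
Level of each of the 39 tested members (rows, grouped by role, peroxins above the thick line) in each mouse (columns), as log2(CPM) minus the mean of the 7 controls on chow. The *Nudt7*, *Hao1* and *Ephx2* rows are red across the 7 controls on HF/HS diet, and *Abcd2* scatters in both directions within each HF/HS group.

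In littermate controls, HF/HS diet raised 8 of the 26 tested enzymes, transporters and membrane proteins, and no peroxin passed the threshold with edgeR. Of the 39 members tested, 8 were higher at an edgeR adjusted p under 0.05 and 0 were lower, where 10.5% of all 13525 genes tested passed in either direction and 4.93% passed as higher. The 8 rises ran from 0.18 to 0.71 on the log2 scale. They span fatty acid entry, alpha-oxidation and branched-chain handling, glycolate oxidation, coenzyme A breakdown, protein quality control and epoxide hydrolysis. The median log2 fold change was 0.048 over these 26 and -0.016 over the 13 peroxins, against 0.0036 over all genes tested. The peroxin median turned positive without replicate 1 or 2 on chow or replicate 1 on HF/HS diet, at most to 0.0096. Whether the enzymes differed from the peroxins as groups was not tested. *Pxmp2* was not among the 8, but DESeq2, limma voom and edgeR with at least 10 counts in every library called it. With edgeR it also passed without replicate 4 on chow or replicate 1 or 2 on HF/HS diet, and under no other alternative.

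*Nudt7* moved most. This Nudix hydrolase splits coenzyme A and its acyl esters inside the peroxisome. Controls had 201 to 281 CPM (median 238) on chow and 346 to 575 CPM (median 364) on HF/HS diet, so the groups did not overlap. The means were 239 ± 28.5 and 391 ± 81.8 CPM (SD, n = 7 each), a log2 fold change of 0.71 (SE 0.11, edgeR adjusted p = 0.000663). Without replicate 7 on HF/HS diet, the highest mouse, it was 0.59. Two-sided exact permutation over the mice gave p = 0.000583, the smallest that the splits of these mice allow. Over all genes tested, 3.56% had groups that did not overlap, and among members only *Nudt7*, *Ephx2* and *Scp2* did.

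*Hao1*, the glycolate oxidase that makes glyoxylate and hydrogen peroxide, lay at 189 to 256 CPM (median 203) in controls on chow and 241 to 361 CPM (median 273) on HF/HS diet. In 5 of 7 mice on HF/HS diet it was above every mouse on chow. The log2 fold change was 0.43 (SE 0.087, edgeR adjusted p = 0.00474), and it ran from 0.36 to 0.48 when each mouse was left out. *Ephx2* hydrolyses fatty acid epoxides in the cytosol and the peroxisome. It rose from 1163 to 1358 CPM (median 1264) to 1412 to 1671 CPM (median 1529) with no overlap, by 0.30 on the log2 scale (SE 0.051, edgeR adjusted p = 0.00132). The protease *Lonp2*, which degrades oxidised and surplus matrix proteins, went from 340.3 to 406 CPM (median 364) to 397 to 464 CPM (median 423). Its log2 fold change was 0.21 (SE 0.054, edgeR adjusted p = 0.0203), and 5 of 7 mice on HF/HS diet stood above all mice on chow.

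Of the 5 enzymes of alpha-oxidation and branched-chain or enoyl chains, *Amacr*, *Scp2* and *Phyh* rose, as did the membrane transporter *Abcd3*. *Hacl1* and *Pecr* did not pass, with log2 fold changes of -0.18 (edgeR adjusted p = 0.234) and 0.081 (0.525). *Abcd3*, also known as PMP70, carries branched and long-chain acyl-CoA and bile acid precursors across the membrane. It had 524 to 606 CPM (median 548) on chow and 582 to 739 CPM (median 646) on HF/HS diet, a log2 fold change of 0.25 (SE 0.061, edgeR adjusted p = 0.0141). *Amacr* turns the R into the S isomer so that branched chains can be oxidised. Its range moved from 122 to 146 CPM (median 131) to 134 to 190.3 CPM (median 162), with 6 of 7 mice on HF/HS diet above all mice on chow, and its log2 fold change was 0.30 (SE 0.066, edgeR adjusted p = 0.00758). *Scp2* separated completely, at 3245 to 3450.2 CPM (median 3318) on chow and 3586 to 4301 CPM (median 3808) on HF/HS diet. The rise was 0.22 on the log2 scale (SE 0.052, edgeR adjusted p = 0.0107).

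*Phyh* was at the edge of the threshold. It had 1528 to 1928 CPM (median 1817) in controls on chow and 1897 to 2072 CPM (median 2016) on HF/HS diet, and 6 of 7 mice on HF/HS diet exceeded all mice on chow. The log2 fold change was 0.18 (SE 0.054, edgeR adjusted p = 0.0495). DESeq2, limma voom and edgeR with at least 10 counts in every library also called it. Upper-quartile factors, no filter on low counts, all 27 mice in 1 fit and the replicate block did not call it. When single mice were left out, it stayed under the threshold without replicate 4 on chow or replicate 2 on HF/HS diet. Leaving out any of the other 12 mice gave an edgeR adjusted p between 0.0563 and 0.0984.

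**Figure D3:**
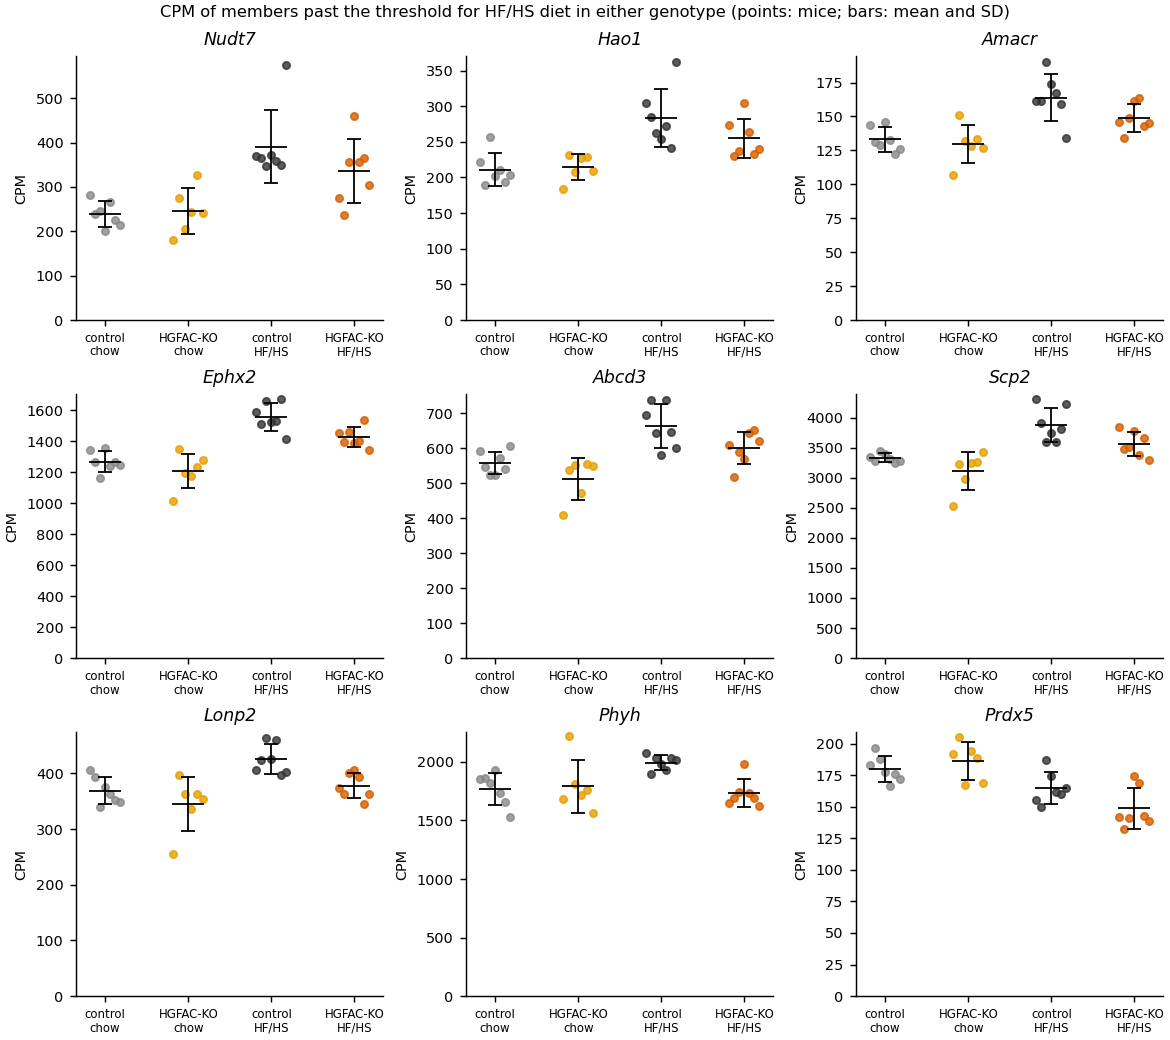
CPM of the 9 members that passed the threshold for HF/HS diet in controls or in HGFAC-KO mice, with each mouse as a point and the mean and SD as bars (7, 6, 7 and 7 mice from left to right), on axes from 0. *Nudt7*, *Ephx2* and *Scp2* do not overlap between controls on chow and on HF/HS diet, and *Prdx5* is lowest in HGFAC-KO mice on HF/HS diet.

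To show the DNA ahead of these diet-responsive genes, the 250 bases before an annotated start were taken from RefSeq (GRCm38.p6), where 32 of 40 members matched, with 41 starts. *Nudt7* and *Hao1* are shown as the largest rises, and *Scp2* and *Lonp2* because a searched motif was found in their windows. Of the 8 genes past the threshold, 6 matched, and *Amacr* and *Ephx2* had no entry. Capitals mark AGGTCA, the hexamer that nuclear receptors bind, or CACGTG, the E-box core. Both strands were searched. Windows run 5′ to 3′ on the strand of the gene: *Nudt7* at chr8:114133324-114133573 (plus), *Hao1* at chr2:134554353-134554602 (minus), *Scp2* at chr4:108118548-108118797 (minus) and *Lonp2* at chr8:86651319-86651568 (plus).
Nudt7: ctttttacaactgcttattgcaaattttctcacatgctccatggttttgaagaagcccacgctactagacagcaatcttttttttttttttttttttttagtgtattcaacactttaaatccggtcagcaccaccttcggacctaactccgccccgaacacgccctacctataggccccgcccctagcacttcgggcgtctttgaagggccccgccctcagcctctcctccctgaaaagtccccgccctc
Hao1: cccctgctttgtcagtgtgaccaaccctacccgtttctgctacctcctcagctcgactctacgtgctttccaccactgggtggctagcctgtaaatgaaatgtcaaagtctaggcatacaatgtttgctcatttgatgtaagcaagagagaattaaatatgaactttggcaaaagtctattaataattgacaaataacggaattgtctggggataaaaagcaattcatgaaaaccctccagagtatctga
Scp2: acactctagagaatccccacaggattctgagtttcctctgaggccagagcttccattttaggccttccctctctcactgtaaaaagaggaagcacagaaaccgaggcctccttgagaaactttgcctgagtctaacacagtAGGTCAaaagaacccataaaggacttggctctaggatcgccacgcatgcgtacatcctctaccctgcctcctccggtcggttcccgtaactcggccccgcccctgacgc
Lonp2: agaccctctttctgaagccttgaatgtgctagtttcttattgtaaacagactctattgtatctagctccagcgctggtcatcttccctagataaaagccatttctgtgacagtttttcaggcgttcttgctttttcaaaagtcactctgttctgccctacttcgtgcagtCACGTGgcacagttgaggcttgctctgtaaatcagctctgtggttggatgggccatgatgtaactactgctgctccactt

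In GENCODE annotation of GRCm38, *Nudt7* spans 114133557 to 114154739 of chromosome 8, *Hao1* 134497361 to 134554368 of chromosome 2, *Scp2* 108043839 to 108144998 of chromosome 4 and *Lonp2* 86624043 to 86723873 of chromosome 8. The *Scp2* and *Lonp2* windows thus lie ahead of starts inside the gene. The other *Lonp2* window, chr8:86623793-86624042, ends at the start of the gene and holds none of the searched motifs. AGGTCA was found in 5 of 41 member windows (12.2%) against 14.0% of 32851 windows of the same length over all genes. CACGTG was found in 4 of 41 (9.76%) against 6.02%. These were 4 of 27 windows of enzymes and transporters (*Dao*, *Ddo*, *Gnpat* and *Lonp2*) and 0 of 14 windows of peroxins, too few to compare the classes. In the windows of members past the threshold for diet in controls, AGGTCA and CACGTG were each in 1 of 9 (11.1%). The direct repeat AGGTCANAGGTCA, which contains AGGTCA, was in none of the 41 and in 11 of all windows. Such matches describe letters and not binding sites.

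No peroxin passed the threshold for diet in controls with edgeR. At an unadjusted p under 0.05 there were 2 higher and 1 lower of 13, where 25.4% of all genes passed in either direction. These were *Pex6* (log2 fold change 0.16, edgeR adjusted p = 0.0535), *Pex11g* (0.18, 0.0723) and *Pex13* (-0.13, 0.0686). DESeq2 called these 3, and limma voom called none. With edgeR, *Pex13* was called with upper-quartile factors and without replicate 4 on chow, *Pex6* with at least 10 counts in every library and without replicate 7 on HF/HS diet, both with all 27 mice in 1 fit, and *Pex11g* without replicate 5 on HF/HS diet. The 95% intervals of all 13 peroxins lay between -0.22 (*Pex13*) and 0.31 (*Pex11g*) on the log2 scale.

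Among HGFAC-KO mice, HF/HS diet left 2 of 39 members past the threshold, against 5.89% of 13613 genes. This share of all genes ran from 3.41% (without chow replicate 2) to 7.01% (without HF/HS replicate 5) when each mouse was left out. *Ephx2* rose again, from 1016 to 1346 CPM (median 1213) on chow to 1344 to 1539 CPM (median 1401) on HF/HS diet, and 6 of 7 mice on HF/HS diet exceeded all mice on chow. The log2 fold change was 0.25 (SE 0.065, edgeR adjusted p = 0.0367). *Prdx5*, which reduces peroxides in peroxisomes, mitochondria and cytosol, fell from 167 to 205 CPM (median 190.3) to 133 to 174 CPM (median 142). In 5 of 7 mice on HF/HS diet it was below all mice on chow, with a log2 fold change of -0.32 (SE 0.074, edgeR adjusted p = 0.0194). In controls its log2 fold change was -0.12 (edgeR adjusted p = 0.161). Opposite-strand exons of Trmt112 cover 19.1% of the *Prdx5* exons, and the strand setting of the counting is not given in the sources used here.

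Of these 2 calls, that of *Ephx2* depended on single mice more than that of *Prdx5*. When each mouse was left out, the log2 fold change ran from 0.20 to 0.27 for *Ephx2* and from -0.36 to -0.29 for *Prdx5*. *Ephx2* lost the threshold without chow replicate 3, 4 or 5 or HF/HS replicate 1, 2, 3 or 6 (edgeR adjusted p between 0.0511 and 0.0756), and *Prdx5* without chow replicate 2 (0.0540). Without HGFAC-KO replicate 1 on chow, the library least like its group, 3 members passed: *Ephx2* (log2 fold change 0.20), *Prdx5* (-0.31) and *Far1*.

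The other members that rose in controls had positive values in HGFAC-KO mice too, except *Phyh*. *Nudt7* gave 0.46 (edgeR adjusted p = 0.0861) and *Hao1* 0.25 (0.0601). *Abcd3* gave 0.23 (0.0898), *Amacr* 0.21 (0.0924), *Scp2* 0.20 (0.111) and *Lonp2* 0.14 (0.339), all as log2 fold change with edgeR adjusted p. For each of these genes chow replicate 1 was the lowest HGFAC-KO mouse on chow. For *Lonp2* it had 255 CPM against 337 to 397 CPM in the other HGFAC-KO mice on chow, so this value leans on it. *Phyh* gave -0.042 (0.791). Its chow replicate 2 stood at 2219 CPM and the other HGFAC-KO mice on chow at 1559 to 1811 CPM, so this sign may rest on 1 mouse. In HGFAC-KO mice DESeq2 also called *Abcd3*, *Hao1*, *Nudt7* and *Scp2*, where it called 10.3% of all genes. The edgeR fit of all 27 mice called *Abcd3*, *Nudt7* and *Scp2* (8.35% of all genes), and limma voom called none of these. A call in 1 genotype and none in the other does not show that the genotypes differ.

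In HGFAC-KO mice no peroxin passed the threshold for diet, and most had values below 0. Of 13, 11 were lower than on chow, where 49.2% of all genes were lower, and their median log2 fold change was -0.052 against 0.0037 over all genes tested. At an unadjusted p under 0.05, which 22.4% of all genes reached, were *Pex16* (-0.17, edgeR adjusted p = 0.0981) and *Pex13* (-0.12, edgeR adjusted p = 0.101). DESeq2 called *Pex13*, and limma voom called no peroxin. The 26 enzymes and membrane proteins had a median of 0.033, with 15 higher and 11 lower. Without chow replicate 1 the medians were -0.088 for the peroxins and 0.0031 for the enzymes, and when each mouse was left out they ran from -0.088 to -0.041 and from 0.0031 to 0.058.

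**Figure D4:**
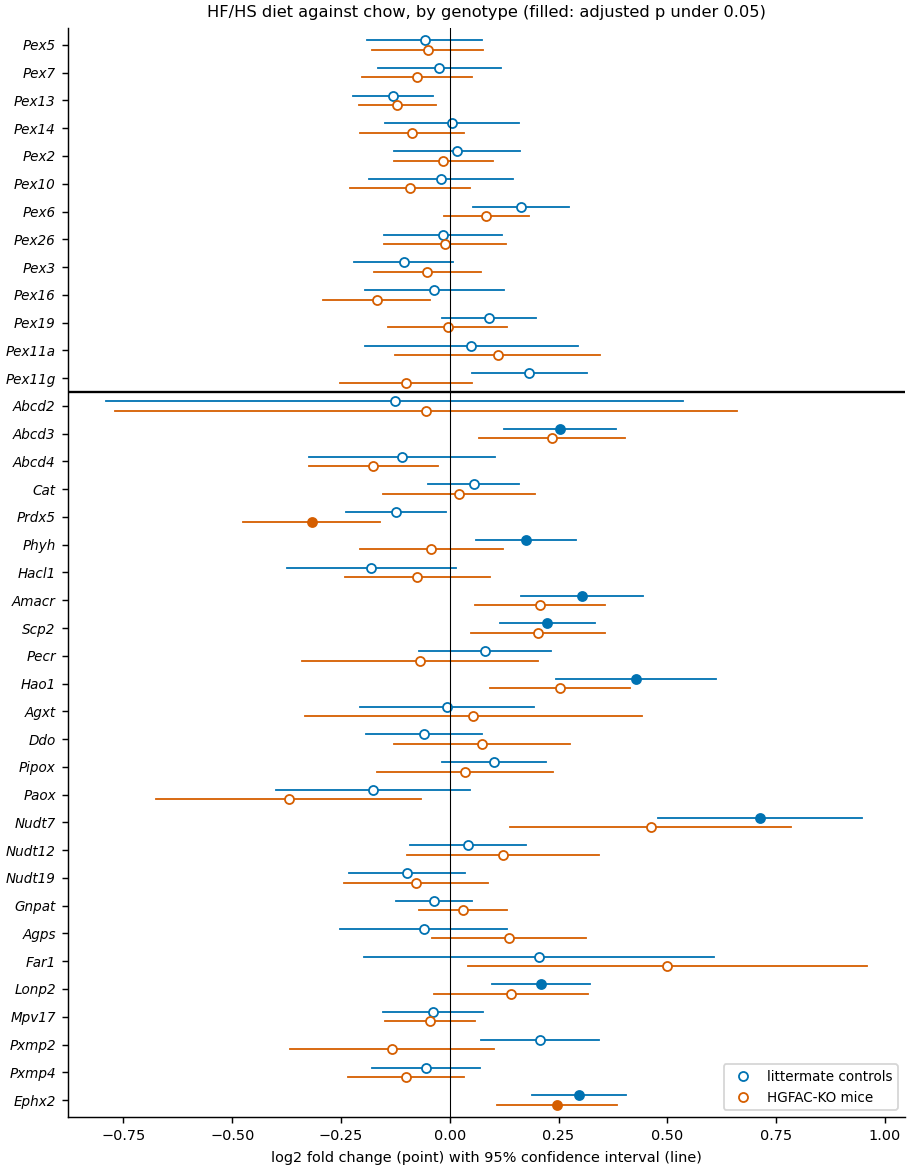
log2 fold change of HF/HS diet against chow with its 95% interval for the 39 tested members, in littermate controls (blue) and HGFAC-KO mice (orange), filled where the edgeR adjusted p is under 0.05. The 8 filled blue points all lie right of 0 and below the line under the peroxins, and the filled orange points are *Ephx2* and *Prdx5*.

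An interaction term in a fit of all 27 mice tested whether the diet response differed between genotypes. None of 39 members passed with edgeR, DESeq2 or limma voom, and none of 13932 genes did with edgeR (0.00% called). At an unadjusted p under 0.05 were 4 members, all with a lower diet response in HGFAC-KO mice, where 3.63% of all genes passed in either direction and 1.89% as lower. *Pex11g* differed by -0.29 on the log2 scale (95% interval -0.48 to -0.088), *Pxmp2* by -0.34 (-0.61 to -0.077), *Phyh* by -0.22 (-0.41 to -0.032) and *Prdx5* by -0.20 (-0.38 to -0.0094). All had an edgeR adjusted p of 0.984. Opposite-strand exons of Gm44775 cover 41.1% of the *Pex11g* exons.

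Loss of HGFAC put no member past the threshold on either diet. On chow 0 of 39 members were called by edgeR, where 0.00737% of 13571 genes were. DESeq2 and limma voom called none there, against 0.652% and 0.00737% of all genes. On HF/HS diet edgeR called 0 of 39, where 0.0148% of 13544 genes were called. There limma voom called none (0.0148% of all genes) and DESeq2 called 1, *Phyh* (0.406% of all genes). The edgeR share of all genes on HF/HS diet was 0.0367% without control replicate 7 and 0.0809% without HGFAC-KO replicate 5. At an unadjusted p under 0.05, 4 members passed on chow (10.3% against 5.98% of all genes), with *Abcd2*, *Agxt* and *Pex10* higher and *Pex11a* lower. On HF/HS diet 8 members passed (20.5% against 9.64%, of which 4.70% lower), and all 8 were lower: *Phyh*, *Lonp2*, *Pex19*, *Pex11g*, *Ephx2*, *Pex11a*, *Prdx5* and *Abcd3*.

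On chow the lowest p was that of *Abcd2*, at 13.2 to 24.3 CPM (median 16.4) in controls and 20.4 to 37.1 CPM (median 22.6) in HGFAC-KO mice. The ranges overlapped, with a log2 fold change of 0.53 (SE 0.16, edgeR adjusted p = 0.801, two-sided exact permutation p = 0.0111). *Agxt*, which converts glyoxylate to glycine, had 217 to 311 CPM (median 281) in controls and 270.2 to 440.3 CPM (median 305) in HGFAC-KO mice (0.28, SE 0.12, edgeR adjusted p = 0.801). Without HGFAC-KO replicate 1 its log2 fold change was 0.17. *Pex11a*, which shapes the membrane for division and is a known PPARα target, had 42.3 to 62.9 CPM (median 55.5) in controls and 28.5 to 54.2 CPM (median 48.3) in the knockouts. Its log2 fold change was -0.29 (SE 0.13, edgeR adjusted p = 0.801), and -0.19 without HGFAC-KO replicate 1, the lowest mouse.

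On HF/HS diet *Phyh* had the lowest p. Controls had 1897 to 2072 CPM (median 2016) and HGFAC-KO mice 1622 to 1985 CPM (median 1689), and 6 of 7 HGFAC-KO mice were below every control. The log2 fold change was -0.21 (SE 0.054, edgeR adjusted p = 0.333, two-sided exact permutation p = 0.00233). *Lonp2* had 397 to 464 CPM (median 423) in controls and 345 to 406 CPM (median 374) in HGFAC-KO mice, with 5 of 7 HGFAC-KO mice below every control (-0.17, SE 0.055, edgeR adjusted p = 0.411). *Pex19*, the chaperone that delivers new membrane proteins, had 124 to 148 CPM (median 132) in controls and 113 to 135 CPM (median 116) in HGFAC-KO mice, and 6 of 7 HGFAC-KO mice were below every control. Its log2 fold change was -0.17 (SE 0.052, edgeR adjusted p = 0.411).

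On HF/HS diet the genotype values of peroxins and of enzymes were mostly below 0. The median log2 fold change of HGFAC-KO against control was -0.086 over 13 peroxins and -0.11 over 26 enzymes and membrane proteins, against -0.0015 over all genes tested. Without control replicate 3 the peroxin median was -0.055. Of the peroxins 10 were lower and of the enzymes 16, where 50.5% of all genes were lower. On chow the medians were -0.021 and 0.020, and neither sign was stable. Without control replicate 1 or 2 the peroxin median was 0.00032 or 0.0043, and without control replicate 7 or HGFAC-KO replicate 2 the enzyme median was -0.0015 or -0.0062. Between the diets, which share no mice, 8 peroxins were lower and 3 higher on both, and 2 changed side (84.6% on the same side). Enzymes had the same side on both diets in 57.7% of cases and all genes in 58.6%.

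**Figure D5:**
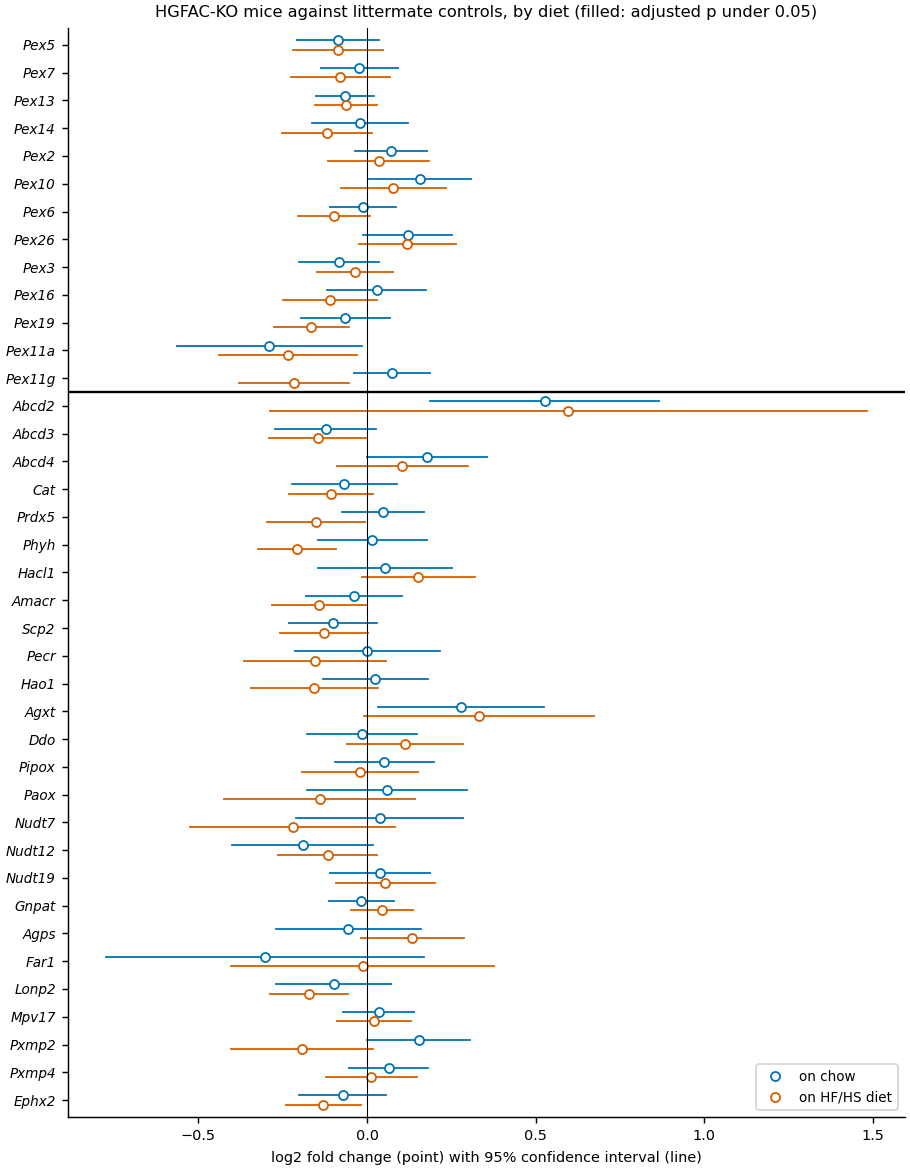
log2 fold change of HGFAC-KO mice against littermate controls with its 95% interval for the 39 tested members, on chow (blue) and on HF/HS diet (orange). All points are open, since none has an edgeR adjusted p under 0.05, and *Pex11a*, *Pex19*, *Abcd3*, *Scp2*, *Lonp2* and *Ephx2* lie left of 0 on both diets.

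With both diets in 1 fit and diet as a term, 0 of 39 members passed with edgeR, DESeq2 or limma voom. Of all genes, edgeR called 0.158% of 13932, DESeq2 1.53% and limma voom 0.129%. The edgeR share of all genes ran from 0.0144% (without HGFAC-KO replicate 2 or 7 on HF/HS diet) to 0.453% (without control replicate 7 on HF/HS diet) when each mouse was left out. At an unadjusted p under 0.05, 10 members were lower and 5 higher (38.5% against 13.1% of all genes, 6.16% lower and 6.91% higher). *Pex11a* had a log2 fold change of -0.26 (SE 0.083, edgeR adjusted p = 0.16), and it ran from -0.29 to -0.22 when each mouse was left out. *Agxt* had 0.30 (SE 0.10, edgeR adjusted p = 0.193) and *Pex19* -0.12 (SE 0.041, edgeR adjusted p = 0.197). Also lower were *Lonp2*, *Abcd3*, *Scp2*, *Ephx2*, *Nudt12*, *Pex13*, *Pex5* and *Phyh*, by 0.066 to 0.16 on the log2 scale, and higher were *Pex26*, *Abcd2*, *Pex10* and *Abcd4*.

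The summed level of the hepatocyte markers, most of it albumin (*Alb*), lay higher in HGFAC-KO mice than in controls, with overlapping ranges. The 6 found of the 7 summed to 73628 to 86962 CPM in controls and 85528 to 97805 CPM in HGFAC-KO mice on chow, and to 72683 to 91231 CPM and 84084 to 112188 CPM on HF/HS diet. *Alb* alone averaged 60389 ± 4205 and 69627 ± 3951 CPM on chow (SD, n = 7 and 6), and 59246 ± 7090 and 78051 ± 8863 CPM on HF/HS diet (n = 7 each). Of the 6 markers, 4 were higher and 2 lower in HGFAC-KO mice on chow, and 5 higher and 1 lower on HF/HS diet, with 0 past the threshold with edgeR on either diet. No marker of this list was at 0 in any group. Their part in the genotype values of the members was not tested.

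Marker sums of the other cell types were compared by their medians, without a test. Between genotypes on chow, the Kupffer cell sum was 151 CPM (controls) and 119 CPM (HGFAC-KO), the leukocyte sum 11.3 and 8.40 CPM, and the sinusoidal endothelial sum 150 and 133 CPM. The cholangiocyte sum was 41.9 and 54.3 CPM on chow, and 47.2 and 58.3 CPM on HF/HS diet.

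Between diets the hepatocyte sum had medians of 77187 CPM on chow and 77221 CPM on HF/HS diet in controls, and of 90470 and 100237 CPM in HGFAC-KO mice. The sinusoidal endothelial sum was 150 and 185 CPM in controls, and 133 and 174 CPM in HGFAC-KO mice. For Kupffer cells it was 151 and 164 CPM in controls, and 119 and 179 CPM in HGFAC-KO mice. The erythroid sum was lower on HF/HS diet in both genotypes, with 224 and 182 CPM for controls and 230 and 158 CPM for knockouts. The stellate sum was 234 and 243 CPM for controls and 210.2 and 259 CPM for knockouts, and the leukocyte sum 11.3 and 11.1 CPM and 8.40 and 12.3 CPM. The part of these cell types in the values of the members was not tested.

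The neighbouring peroxisomal lists gave the setting. Of 20 core beta-oxidation genes tested, 7 rose and 1 fell with HF/HS diet in controls, where 10.5% of all genes passed and 4.93% passed as higher. Among those that rose were *Slc27a2*, an acyl-CoA synthetase (0.33 on the log2 scale, SE 0.05, edgeR adjusted p = 0.000457) and the thiolase *Acaa1b* (0.52, SE 0.091, edgeR adjusted p = 0.00152). In HGFAC-KO mice, where 5.89% of all genes passed, 2 of 20 rose with the diet, *Acaa1b* (0.51, edgeR adjusted p = 0.0115) and the carnitine transferase *Crot* (0.47, 0.00968), and the next was *Acot3* (-0.83, 0.0905). With diet as a term, where 0.158% of all genes passed, 1 of 20 was lower in HGFAC-KO mice, *Acaa1b* (-0.33, edgeR adjusted p = 0.0434), and *Acaa1a* had -0.18 (0.105).

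Of the 9 other peroxins and fission genes tested of 10 listed, 2 fell with HF/HS diet in controls and 0 rose, where 10.5% of all genes passed in either direction. Among those that fell was the ubiquitin ligase *Trim37* (-0.30 on the log2 scale, edgeR adjusted p = 0.00284). The processing protease *Tysnd1* had -0.18 (0.0841). In HGFAC-KO mice none of the 9 passed with edgeR, where 5.89% of all genes did, and 1 was higher at an unadjusted p under 0.05, where 22.4% of all genes passed in either direction.

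Of 19 other peroxisomal enzymes tested of 20 listed, 2 fell in controls and 4 fell in HGFAC-KO mice with HF/HS diet, and 0 rose. Over all genes 10.5% passed in controls and 5.89% in HGFAC-KO mice, so the count in controls was near the background. In controls these were the peroxiredoxin *Prdx1* (-0.25, edgeR adjusted p = 0.00279) and the mevalonate pathway kinase *Pmvk* (-0.70, 0.0293), with *Gstk1* next (0.22, 0.0642). In HGFAC-KO mice *Pmvk* (-0.86, edgeR adjusted p = 0.0272), *Mvk* (-1.18, 0.0388) and *Prdx1* (-0.27, 0.0395) led. The last list held 5 genes of nuclear receptors and a coactivator. Of these, *Ppara* rose (0.42, edgeR adjusted p = 0.0162) and *Ppard* fell (-0.25, 0.0233) with the diet in controls, and *Rxra* had 0.21 (0.146).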

How the data were processed

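Liver RNA-Seq counts of 27 mice were analysed. Stranded mRNA libraries were read as 50 bp pairs, which the authors mapped with HISAT2 to mouse assembly GRCm38. Reads per gene come from featureCounts 1.6.3 (per the labels), and the deposited counts are not normalized. The annotation and strand setting of the counting are not given in the sources used here. Rows without a gene name (3886 of 27179 rows, 4.13% to 12.1% of a library) entered neither library sizes nor tests, and symbols on several rows were summed. Within groups, all libraries differed by more than sampling noise.

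Genes were tested over the whole table in R 4.3.3 with edgeR 4.0.16: TMM factors, filterByExpr (minimum count 10, minimum total 15), a robust quasi-likelihood fit and Benjamini-Hochberg adjustment, with a threshold of 0.05. Each comparison used its own 2 groups. The interaction and the genotype effect with diet as a term used all 27 mice. Single members were also tested by exact two-sided permutation of the mice on log2 CPM (prior count 2). Intervals are 95%. Levels per length used exons of GENCODE for GRCm38. Depth leaves small counting error except for *Far1*, *Paox*, *Pex10* and *Abcd2*.

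Members and lists were chosen with earlier results of these data known. Every member is named with its level, and full values are given for members past the threshold (at most the 10 largest changes in a comparison) and for the 3 with the smallest p in each genotype comparison. Outside the members, *Hgfac* and the 3 genes with the smallest p of a list with any call in that comparison are named, except for genes that are counted but not reported here by name. Alternatives were DESeq2 1.42.0, limma 3.58.1 (voom), upper-quartile factors, other filters, 1 fit of all mice, the replicate number as a block, leaving out each mouse and a prior count of 0.5. The fits were tested on simulated data.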

Additional observations from a re-analysis of the deposited data

Results flagged for a closer look

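Each of the 39 tested members was checked in each group for a mouse that stood apart from the rest, by the gap to its nearest neighbour over the range of the group on the log2 scale. Of 156 such groups 10 were picked out (6.41%), where chance alone picks about 5%. In HGFAC-KO mice on chow, replicate 1 was the lowest for *Pex11a* (28.5 CPM, others 42.8 to 54.2), *Pex19* (97.7 CPM, others 119.5 to 131.0), *Nudt12* (26.98 CPM, others 41.8 to 45.9) and *Lonp2* (255 CPM, others 337 to 397). This library was also among the least like its group over all genes. In the same group replicate 2 was the highest for *Pex6* (125 CPM, others 114 to 118).

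Control replicate 7 on HF/HS diet was the highest for *Nudt7*, at 575 CPM against 346 to 373 CPM in the other 6 mice. Among HGFAC-KO mice on HF/HS diet, replicate 4 was the highest for *Pex2* (80.7 CPM, others 67.8 to 72.7) and for *Phyh* (1985 CPM, others 1622 to 1739), and replicate 5 was the highest for *Pex19* (135 CPM, others 113 to 119). *Far1* was lowest in control replicate 2 on chow, at 1.42 CPM against 2.38 to 3.23 CPM. No member passed the interaction test of diet and genotype.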

How the results depend on the processing

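For diet in controls, the count of 8 members past the threshold ran from 7 to 10 when each mouse was left out, and was 12 with DESeq2, 9 with limma voom, 8 with upper-quartile factors (*Pex13* in place of *Phyh*), 7 with no filter on low counts, 10 with at least 10 counts in every library and 9 with all 27 mice in 1 fit. *Abcd3*, *Amacr*, *Ephx2*, *Hao1* and *Nudt7* were called under every alternative run. For diet in HGFAC-KO mice, the count of 2 became 7 with DESeq2 (10.3% of all genes), 1 with no filter (3.66%) and 5 with all 27 mice in 1 fit (8.35%). It ran from 1 to 3 when each mouse was left out, with 3.41% to 7.01% of all genes called. For genotype on HF/HS diet, DESeq2 called 1 member (*Phyh*) and 0.406% of all genes. No other alternative called a member for genotype or interaction. The cause of these moves was not tested. No median log2 fold change of the peroxins or of the enzymes moved by more than the spread between mice, but those of peroxins for diet in controls and of both sets for genotype on chow changed sign when some mice were left out, and that of enzymes on chow also with the replicate block (-0.012). No member changed direction in the comparison for which its full values are given. Fold changes of single members in other comparisons were not followed across the alternatives. The prior count of 0.5 left the number of members at a permutation p under 0.05 as it was in each comparison.

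With the replicate number as a block, 5 members passed for diet in controls (without *Scp2*, *Lonp2* and *Phyh*) and 1 (*Prdx5*) in HGFAC-KO mice. Of all genes, 5.72% and 4.42% passed in these 2 fits. Nothing in the labels says that a number marks a shared litter or day. Deviations of same-numbered mice correlated between -0.27 and 0.39, and the pairs over 0.1 were 0 of 7 for diet in controls, 4 of 6 for diet in HGFAC-KO mice, 1 of 6 for genotype on chow and 3 of 7 for genotype on HF/HS diet. In no comparison did every pair exceed 0.1, and the main fits did not pair the mice. Such correlations cannot decide whether some numbers mark a shared litter or day.

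Depth limits *Dao*, with at most 1 count, and adds counting error for *Far1*.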
